A study of Mus musculus with 9 samples.

Results

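The heat-inducible chaperones and co-chaperones are 10 genes chosen by symbol from the 35275 genes of the expression table: the Hsp70 genes Hspa1a, Hspa1b and Hspa8, the Hsp90 gene Hsp90aa1, the Hsp110 gene Hsph1, the co-chaperones Dnajb1 and Bag3, and the small heat shock proteins Hspb1, Hspb8 and Cryab. All 10 passed the filter on low counts, as did 13082 genes of the table. They were measured by RNA-seq of poly-T selected RNA from wild type mouse embryonic fibroblasts (MEFs) of the C57Bl/6 strain. The treatments were iso-osmolar medium (300 mOsm), or 3 h of low-intensity hyperosmotic stress (500 mOsm, 200 mM sucrose added) or of high-intensity hyperosmotic stress (600 mOsm, 300 mM sucrose added). Each treatment was sequenced as 3 libraries, 9 in all, and by the labels the groups share strain and cell type and differ in the medium alone. The labels do not say whether the 3 libraries came from separate cultures, so the p-values measure the spread between these libraries, which may be technical.

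Heat shock proteins are molecular chaperones that bind unfolded or misfolded proteins, hold them in solution, refold them or hand them over for degradation. In cells under heat or other proteotoxic stress, the transcription factor Hsf1 is released from chaperones, forms trimers and binds heat shock elements, which are inverted repeats of a short unit in the promoters of chaperone genes. Under hyperosmotic stress cells lose water and shrink, and the transcription factor TonEBP (gene Nfat5) acts through its own element, TonE, on genes for osmolyte transport and synthesis and on Hsp70 genes.

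Treatments were compared on the read counts with the quasi-likelihood test of edgeR, and a gene is said to rise or fall where its p adjusted over all 13082 genes was under 0.05. At 500 mOsm the strongly inducible Hsp70 genes Hspa1b and Hspa1a rose 27.2-fold and 28.5-fold over iso-osmolar medium, and Bag3, Hspb1 and Hspb8 rose by 1.16 to 1.39-fold. At 600 mOsm Hspa1a was 10.0-fold, Hspa1b 2.09-fold and Hspb8 1.14-fold above iso-osmolar medium, and Bag3 and Hsph1 were below it. Hspa8, Hsp90aa1, Dnajb1 and Cryab passed the test in no comparison. Hspa8, the most abundant of the 10 transcripts, lay between 606 and 706 FPKM (reads per unit of gene length and of library size) in all 9 libraries.

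Promoters are shown for Hspa1a and Hspa1b, which are nearly identical there, and for Hspb1. Among the 5 genes that rose at 500 mOsm these 3 held a heat shock element by the search described here, and Bag3 and Hspb8, not shown, held none. Hsph1, also not shown, held a heat shock element as well and did not rise at 500 mOsm. Dnajb1 neither rose nor held this element. Promoter sequences were taken from RefSeq (build GRCm38.p6) for 7 of the 10 genes, without an entry used here for Hspa8, Hsp90aa1 and Cryab. The 250 bases before the start site were searched on both strands for the 2-unit heat shock elements GAANNTTC and TTCNNGAA, for the 3-unit elements GAANNTTCNNGAA and TTCNNGAANNTTC (each of which contains a 2-unit element), and for TonE. The stretches shown lie at chr17:34959239-34959488 on the minus strand for Hspa1b, at chr17:34972157-34972406 on the minus strand for Hspa1a, and at chr5:135887669-135887918 on the plus strand for Hspb1, and capitals mark the 2-unit heat shock elements.
Hspa1b: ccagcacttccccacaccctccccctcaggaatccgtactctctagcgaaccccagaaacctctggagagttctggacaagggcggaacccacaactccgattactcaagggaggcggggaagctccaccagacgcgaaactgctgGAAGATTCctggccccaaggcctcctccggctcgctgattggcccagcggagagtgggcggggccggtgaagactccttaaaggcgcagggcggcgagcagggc
Hspa1a: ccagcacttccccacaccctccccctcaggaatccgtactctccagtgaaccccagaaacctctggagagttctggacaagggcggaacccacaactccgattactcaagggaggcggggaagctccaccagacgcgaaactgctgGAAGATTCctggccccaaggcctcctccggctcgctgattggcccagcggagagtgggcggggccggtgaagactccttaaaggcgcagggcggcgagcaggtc
Hspb1: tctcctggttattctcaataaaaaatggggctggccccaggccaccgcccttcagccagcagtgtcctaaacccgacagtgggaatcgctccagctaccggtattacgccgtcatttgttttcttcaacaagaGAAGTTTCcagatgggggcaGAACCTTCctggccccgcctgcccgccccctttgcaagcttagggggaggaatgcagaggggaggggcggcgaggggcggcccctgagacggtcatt
Hspa1b and Hspa1a each held 1 match, 104 to 97 bases before the start, and Hspb1 held 2, at 117 to 110 and 97 to 90 bases before it. Over the 250 bases Hspa1a and Hspa1b were 98.8% identical and differed at 3 positions, T44C, C47T and G249T, written as the Hspa1b base, the position counted from 1 at the 5′ end of the stretch, and the Hspa1a base. None of these lies in the heat shock element. In all, 4 of the 7 genes (Hspa1a, Hspa1b, Hspb1 and Hsph1) held a 2-unit element (Hsph1 and Dnajb1 each with 2 start sites listed), against 12.8% of 32841 mouse promoters searched in the same way. Hspa1a and Hspa1b, nearly identical here, are not separate cases. The start sites of Hsph1 lie 40 and 61 bases downstream of the gene start that the authors list, so its match lies inside the listed gene. The 3-unit element was in 0.466% of all promoters and in 0 of the 7, and TonE was in 4.31% of all promoters and in 1 of the 7, Hspb1. That TonE match covers the bases of the Hspb1 heat shock element at 117 to 110, so they are not separate stretches. Elements farther than 250 bases from the start were not searched. The windows of Bag3, Dnajb1 and Hspb8 held no match to these letters, and a match is a description of the sequence, not a binding site.

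Hspa1a (ENSMUSG00000091971, chr17:34969190-34972156) and Hspa1b (ENSMUSG00000090877, chr17:34956436-34959238) encode nearly the same stress-inducible Hsp70 protein and lie on the minus strand of mm10, 9951 bases apart. Their transcripts, each a single exon, were 99.3% identical over 2197 aligned bases. Of the 150-base windows, the read length of the study, 38.1% of those in Hspa1a and 40.5% of those in Hspa1b occur unchanged in the other gene. How reads that fit both were counted is not given in the sources used here, so the division of counts between them is uncertain. The sum of both counts does not depend on that division, although reads discarded for fitting both genes would be missing from it. Another gene model, Gm20481, lies on the opposite strand within Hspa1a, with all of its 564 exon bases inside the Hspa1a exon (19% of that exon), and it was listed at 0 counts in all 9 libraries. The sources do not state whether strand was used in counting.

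**Figure D1:**
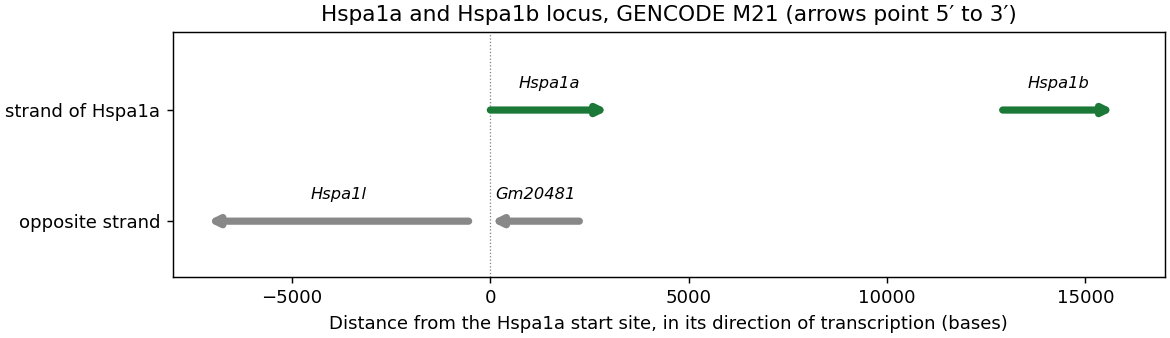
Map of the Hspa1a and Hspa1b locus. The x axis is the distance in bases from the Hspa1a start site in its direction of transcription, the rows are the strands, and arrows run from the start to the end of each gene. Hspa1b follows Hspa1a on the same strand, Gm20481 lies within Hspa1a on the other strand, and Hspa1l starts 547 bases from the Hspa1a start and runs away from it.

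Hspa1b was counted at 491, 630 and 528 reads in iso-osmolar medium, at 16594, 16906 and 15213 at 500 mOsm and at 1145, 1153 and 1199 at 600 mOsm. Its FPKM was 8.07, 9.14 and 7.78 in iso-osmolar medium, 243, 226 and 209.5 at 500 mOsm and 16.9, 18.6 and 16.1 at 600 mOsm. The 3 treatments did not overlap, and the order was 500 mOsm, 600 mOsm and iso-osmolar. The log2 fold change was 4.76 ± 0.0847 (SE) at 500 mOsm, a fold of 27.2 with a 95% interval of 23.9 to 30.9 (edgeR quasi-likelihood test, adjusted p = 1.92e-12). At 600 mOsm it was 1.06 ± 0.0806, a fold of 2.09 with an interval of 1.85 to 2.36 (edgeR adjusted p = 8.13e-07). From 500 to 600 mOsm the gene fell by 3.70 ± 0.0792 on the log2 scale, so that it was 13.0-fold lower (edgeR adjusted p = 5.27e-12). By p-value Hspa1b ranked 2 among the 13082 genes tested at 500 mOsm against iso-osmolar medium, and by fold change 149.

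Hspa1a had far fewer reads, with 5 in each iso-osmolar library, 143, 189 and 145 at 500 mOsm and 41, 77 and 37 at 600 mOsm. With 3 reads as the limit of detection, the floor was 0.113 to 0.137 CPM (counts over the effective size of the library), and the iso-osmolar libraries held 0.204 to 0.228 CPM, so the base of its fold change is close to that limit. These limits cover counting error only. Its FPKM was 0.0776, 0.0685 and 0.0696 in iso-osmolar medium, 1.98, 2.38 and 1.89 at 500 mOsm and 0.573, 1.17 and 0.469 at 600 mOsm, again without overlap between treatments. The log2 fold change was 4.83 ± 0.368 at 500 mOsm, a fold of 28.5 with a 95% interval of 16.4 to 49.6 (edgeR adjusted p = 7.44e-07). At 600 mOsm it was 3.33 ± 0.428, a fold of 10.0 with an interval of 5.27 to 19.1 (edgeR adjusted p = 7.69e-05). From 500 to 600 mOsm Hspa1a fell by 1.51 ± 0.246 on the log2 scale (edgeR adjusted p = 0.000561).

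At 500 mOsm the folds of both genes had overlapping intervals, and at 600 mOsm they did not. Hspa1a made up 1.01%, 0.787% and 0.938% of the reads on both genes in the iso-osmolar libraries and 0.854%, 1.11% and 0.944% at 500 mOsm. At 600 mOsm its share was 3.46%, 6.26% and 2.99%, above all 6 other libraries, and the mean share was 4.24% against 0.911% in iso-osmolar medium and 0.968% at 500 mOsm. The exact two-sided permutation test gave p = 0.1 for 600 mOsm against either treatment, the smallest p that 3 libraries against 3 allow, and p = 0.5 for 500 mOsm against iso-osmolar medium. Added together, both genes held 22.6, 26.0 and 21.8 CPM in iso-osmolar medium, 686, 644 and 585 CPM at 500 mOsm and 49.6, 55.0 and 47.8 CPM at 600 mOsm. The sum was 27.2-fold (95% interval 23.8 to 31.1) above iso-osmolar medium at 500 mOsm and 2.16-fold (1.91 to 2.45) above it at 600 mOsm (edgeR adjusted p = 2.99e-12 and 7.64e-07), so the course of the pair does not rest on the division of reads.

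**Figure D2:**
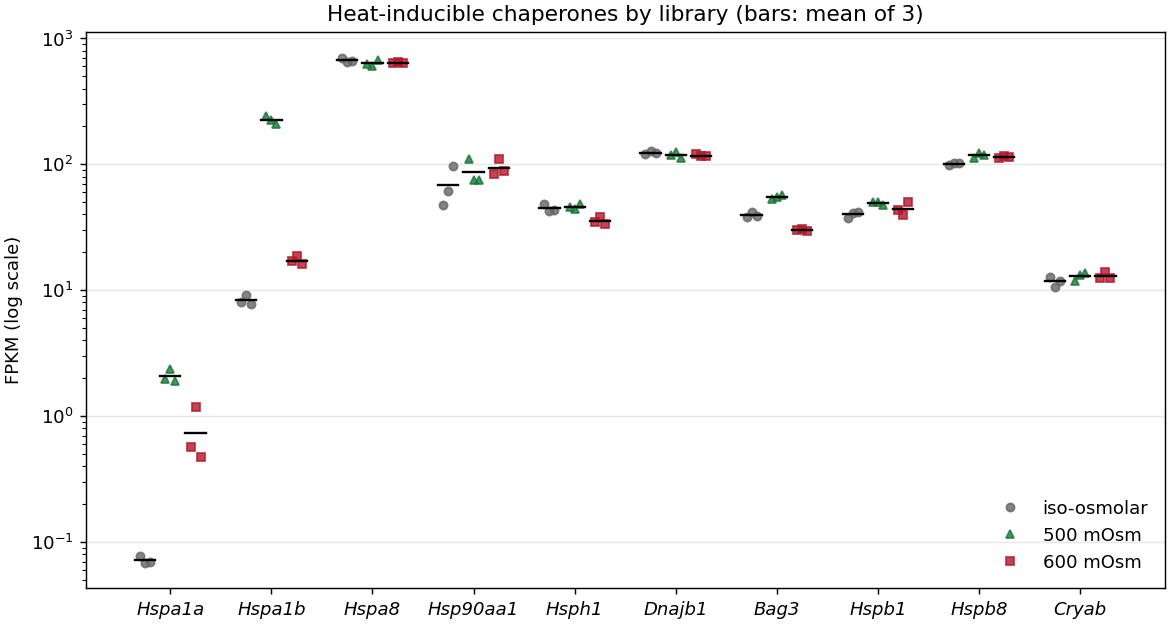
FPKM of each gene in each library. The y axis is FPKM on a log scale, each point is 1 library, symbols mark the treatment, and bars are means of 3 libraries. Hspa1a and Hspa1b are separated by treatment over more than an order of magnitude, and the remaining genes stay within a narrow band, with the widest spread within a treatment for Hsp90aa1 in iso-osmolar medium (47.6 to 97.5 FPKM).

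Hspa8 (ENSMUSG00000015656, chr9:40800984-40805200, plus strand) encodes the constitutive Hsp70, Hsc70, which serves protein folding and clathrin uncoating in unstressed cells. Its FPKM was 706, 656 and 664 in iso-osmolar medium, 621, 606 and 680.2 at 500 mOsm and 637, 647 and 634 at 600 mOsm. The 600 mOsm libraries all lay below the iso-osmolar ones, but the difference did not pass the test at either intensity. The log2 fold change was −0.08 at 500 mOsm (95% interval of the fold 0.880 to 1.01, edgeR adjusted p = 0.212) and −0.06 at 600 mOsm (0.896 to 1.03, edgeR adjusted p = 0.352). Sequences at least 95% identical to Hspa8 over 100 bases or more occur in 6 other genes, among them the pseudogenes Gm15459 and Gm8355, and the 3 that the table lists held 0.339% as many reads as Hspa8. The length that the authors used for Hspa8, 3158 bases, is that of a transcript with a retained intron, whereas its longest coding transcript has 2394 bases. Its FPKM would be higher with that shorter length, and fold changes do not depend on it.

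Hsph1 (ENSMUSG00000029657, chr5:149614287-149636376, minus strand) encodes the Hsp110 protein that exchanges nucleotide on Hsp70. It held 48.5, 42.6 and 43.6 FPKM in iso-osmolar medium, 45.8, 44.1 and 48.8 at 500 mOsm and 35.1, 38.2 and 33.9 at 600 mOsm. The iso-osmolar and 500 mOsm libraries overlapped, and the 600 mOsm libraries lay below both. At 500 mOsm the fold was 1.03 (95% interval 0.948 to 1.12, edgeR adjusted p = 0.612). At 600 mOsm Hsph1 fell by 0.31 ± 0.0569 on the log2 scale against iso-osmolar medium (edgeR adjusted p = 0.00114) and by 0.36 ± 0.0568 against 500 mOsm (edgeR adjusted p = 0.00047). With libraries corrected for GC content and length the log2 fold changes were smaller, −0.13 and −0.22 (edgeR adjusted p = 0.0257 and 0.00135).

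Hsp90aa1 (ENSMUSG00000021270, chr12:110690605-110702728, minus strand) encodes the inducible form of cytosolic Hsp90, which matures kinases and steroid receptors and holds Hsf1 inactive. Its iso-osmolar libraries were spread over 47.6, 61.9 and 97.5 FPKM, and it held 111, 75.7 and 74.6 at 500 mOsm and 84.0, 110.3 and 88.5 at 600 mOsm. All 3 treatments overlapped. The log2 fold change was 0.34 ± 0.217 at 500 mOsm (edgeR adjusted p = 0.284) and 0.47 ± 0.217 at 600 mOsm (edgeR adjusted p = 0.114), with intervals of the fold of 0.913 to 1.75 and 0.998 to 1.92. Without iso-osmolar library 3 both comparisons passed the test, with log2 fold changes of 0.67 and 0.79 (edgeR adjusted p = 0.0136 and 0.00491). Both also passed with that library kept when low counts were not filtered (edgeR adjusted p = 3.81e-06 and 1.3e-12), and the comparison at 600 mOsm passed with the GC content and length correction (edgeR adjusted p = 0.0373). Counting fits with a library left out, Hsp90aa1 passed in 2 of 20 alternatives at 500 mOsm and in 3 of 20 at 600 mOsm. The unfiltered fit also lowered the edgeR adjusted p of Hspa1a at 500 mOsm, from 7.44e-07 to 1.57e-71, at nearly the same fold change. At 500 mOsm Hsp90aa1 did not pass with RLE size factors (edgeR adjusted p = 0.271) or the replicate block (edgeR adjusted p = 0.329). Nor did it pass with DESeq2 (adjusted p = 0.462) or the limma fits (adjusted p = 0.285 and 0.271). The pseudogenes Gm12346 and Gm5844, which share long stretches with Hsp90aa1, held 618 and 138 reads over the 9 libraries against 60333 for Hsp90aa1.

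The co-chaperones of Hsp70 took different courses. Bag3 (ENSMUSG00000030847, chr7:128523583-128546977, plus strand), which links Hsp70 to the small heat shock proteins and to selective autophagy, held 38.2, 41.6 and 38.9 FPKM in iso-osmolar medium, 53.2, 55.0 and 56.9 at 500 mOsm and 29.9, 30.6 and 29.4 at 600 mOsm. The treatments did not overlap, and the 600 mOsm libraries were the lowest and the most even. Bag3 rose at 500 mOsm by a log2 fold change of 0.48 ± 0.0509, a fold of 1.39 with a 95% interval of 1.29 to 1.503 (edgeR adjusted p = 1.41e-05). At 600 mOsm it fell by 0.38 ± 0.0516 on the log2 scale against iso-osmolar medium (edgeR adjusted p = 0.000116) and by 0.86 ± 0.0514 against 500 mOsm (edgeR adjusted p = 1.12e-07). Bag3 was the only gene of the 10 that rose at one intensity and fell at the other by this test.

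Dnajb1 (ENSMUSG00000005483, chr8:83608175-83611902, plus strand), the J-domain protein that delivers clients to Hsp70 and stimulates its ATPase, was abundant and even. It held 121, 127 and 124 FPKM in iso-osmolar medium, 119, 126 and 112 at 500 mOsm and 120.1, 116 and 116 at 600 mOsm. The treatments overlapped, and the fold was 0.959 at 500 mOsm (95% interval 0.884 to 1.04, edgeR adjusted p = 0.459) and 0.960 at 600 mOsm (0.885 to 1.04, edgeR adjusted p = 0.439). The upper bounds of both intervals lay below the 1.39-fold of Bag3 at 500 mOsm.

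The small heat shock proteins hold unfolded proteins in a refoldable state without using ATP. Hspb1 (ENSMUSG00000004951, chr5:135887919-135889563, plus strand) also protects actin filaments, and held 37.5, 41.4 and 41.8 FPKM in iso-osmolar medium, 49.9, 49.8 and 47.7 at 500 mOsm and 43.1, 39.6 and 49.98 at 600 mOsm. At 500 mOsm its libraries lay above the iso-osmolar ones, and at 600 mOsm they were spread across both. The log2 fold change at 500 mOsm was 0.29 ± 0.0898 (edgeR adjusted p = 0.0287), and it no longer passed the test without iso-osmolar library 1 (adjusted p = 0.109), 500 mOsm library 1 (0.0736) or 500 mOsm library 2 (0.0935), or when each library was corrected for the GC content and length of the transcripts (log2 fold change 0.12, adjusted p = 0.164). At 600 mOsm the log2 fold change was 0.16 (edgeR adjusted p = 0.196) and without 600 mOsm library 2 it was 0.24 (0.0442). Between the intensities it was −0.13 (edgeR adjusted p = 0.303), and −0.24 (0.0436) without 600 mOsm library 3.

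Hspb8 (ENSMUSG00000041548, chr5:116408491-116422864, minus strand), the partner of Bag3 in chaperone-assisted autophagy, held 98.3, 103 and 103 FPKM in iso-osmolar medium, 113, 122 and 118 at 500 mOsm and 112, 116 and 115 at 600 mOsm. The libraries of both hyperosmotic treatments lay above the iso-osmolar ones and overlapped each other. The fold was 1.16 at 500 mOsm (95% interval 1.08 to 1.25, edgeR adjusted p = 0.00443) and 1.14 at 600 mOsm (1.06 to 1.22, edgeR adjusted p = 0.00984). Between the intensities it was 0.980 (0.911 to 1.05, edgeR adjusted p = 0.695). At 600 mOsm Hspb8 was therefore above the iso-osmolar level, and Bag3 was below it.

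Cryab (ENSMUSG00000032060, chr9:50752758-50756633, plus strand) encodes the alpha B-crystallin of lens and muscle. Its level in these fibroblasts was lower than those of Hspb1 and Hspb8. It held 12.8, 10.7 and 11.9 FPKM in iso-osmolar medium, 11.9, 13.2 and 13.7 at 500 mOsm and 12.6, 13.9 and 12.6 at 600 mOsm. The treatments overlapped in FPKM. The fold was 1.10 at 500 mOsm (95% interval 0.959 to 1.26, edgeR adjusted p = 0.303) and 1.12 at 600 mOsm (0.978 to 1.28, edgeR adjusted p = 0.182). Cryab faces Hspb2, another small heat shock protein gene, whose start lies 404 bases away on the opposite strand. Hspb2 held 13 to 34 reads per library against 312 to 419 for Cryab. In GENCODE Cryab starts at 50751325, within Hspb2 on the opposite strand, and transcripts of both matched over 252 bases. The spans that the authors list for these genes do not overlap.

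Counted together, 5 of the 10 genes rose at 500 mOsm against iso-osmolar medium (Hspa1a, Hspa1b, Bag3, Hspb1 and Hspb8) where 13.2% of all genes tested rose, and 0 fell where 14.8% of all genes fell. The division of reads between Hspa1a and Hspa1b is uncertain, so they may not be separate cases. With their counts added together and taken as 1 gene, 4 rose and 0 fell at 500 mOsm. At 600 mOsm against iso-osmolar medium 3 rose (Hspa1a, Hspa1b and Hspb8) where 15.1% of all genes rose, and 2 fell (Hsph1 and Bag3) where 20% of all genes fell. Between the intensities 0 were higher at 600 mOsm, against 11.9% of all genes, and 4 were lower (Hspa1a, Hspa1b, Hsph1 and Bag3), against 17.2% of all genes. The median log2 fold change of the 10 genes was 0.25 at 500 mOsm, 0.16 at 600 mOsm and −0.08 between the intensities, and the median of all genes tested was 0.01 in each. The comparisons share libraries and are not independent of each other. Among them 2 genes, Hspa1a and Hspa1b, passed with a log2 fold change of 1 or more in size in each of the 3 comparisons.

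**Figure D3:**
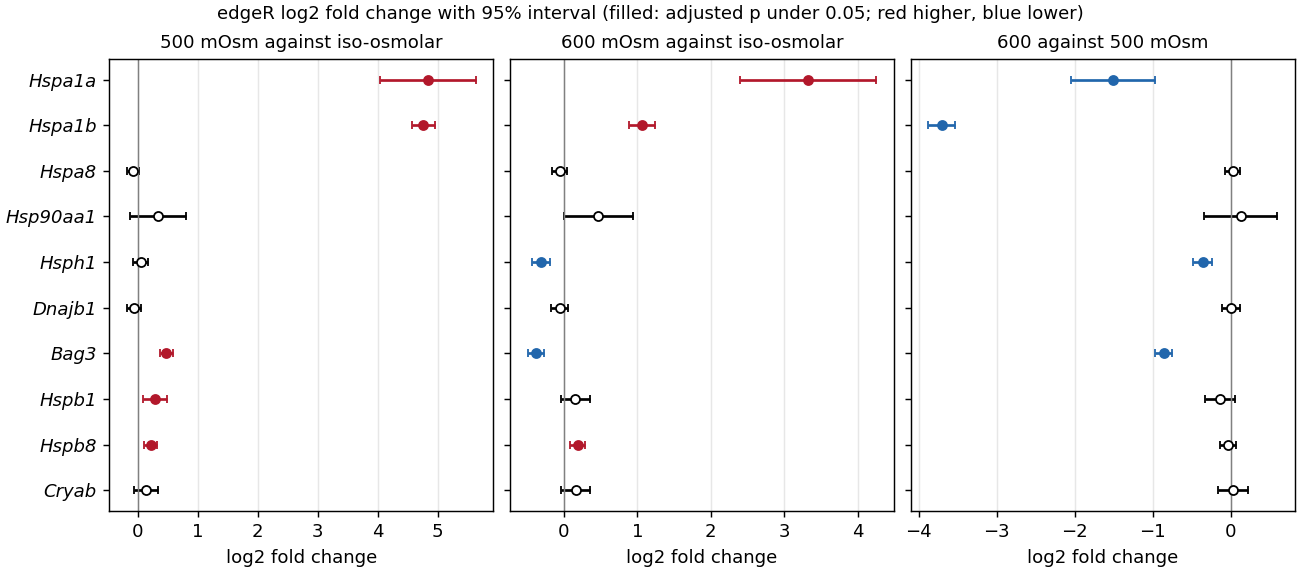
Log2 fold change of each gene in the 3 comparisons, from edgeR. The x axes, which differ in range, are log2 fold changes, points are estimates and bars are 95% intervals, and filled points had an adjusted p under 0.05 (red higher, blue lower). Hspa1a and Hspa1b stand away from the other genes in all panels, and Bag3 is to the right of 0 at 500 mOsm and to the left of 0 in both other panels.

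The make-up of the chaperone transcripts changed mainly through Hspa1b. The FPKM of the 10 genes summed to 1115 ± 20.0 (SD, n = 3) in the iso-osmolar libraries, 1351 ± 27.2 at 500 mOsm and 1106 ± 22.2 at 600 mOsm. The difference of Hspa1b was 92.2% of the net difference between 500 mOsm and iso-osmolar medium. In that net difference the lower means of Hspa8 and Dnajb1 offset part of the higher means of the other genes. The other 9 genes summed to 1106 ± 20.7, 1125 ± 29.8 and 1089 ± 21.1 FPKM. The share of Hspa1b in the sum was 0.748% ± 0.0780 in the iso-osmolar libraries, 16.7% ± 1.24 at 500 mOsm and 1.55% ± 0.0875 at 600 mOsm. Hspa8 held 60.6% ± 2.30, 47.1% ± 2.47 and 57.8% ± 0.586. Per length, there was 81.5 times as much Hspa8 as Hspa1b in iso-osmolar medium, 2.83 times as much at 500 mOsm and 37.3 times as much at 600 mOsm. These ratios and shares rest on the length that the authors used for Hspa8, that of a transcript with a retained intron. They also rest on the uncertain division of reads between Hspa1a and Hspa1b.

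**Figure D4:**
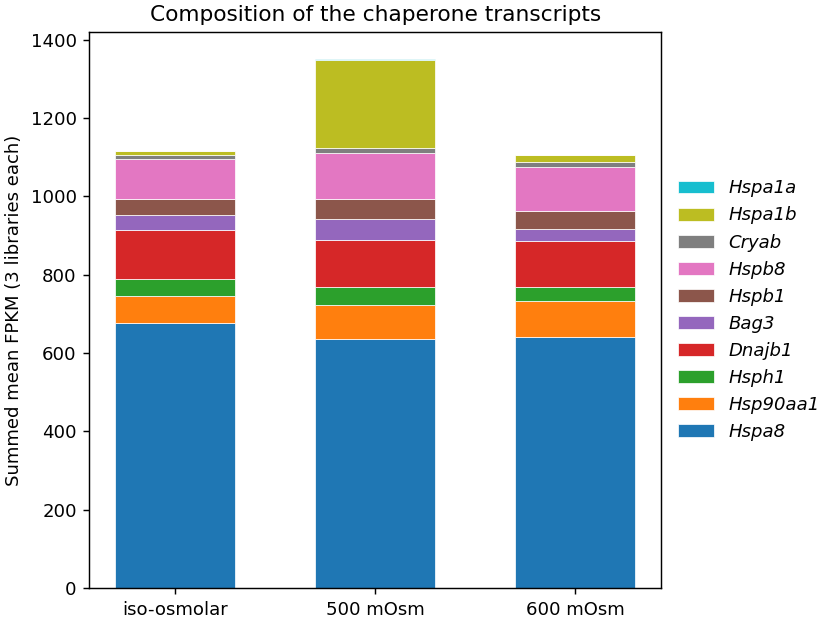
Summed mean FPKM of the 10 genes by treatment. The y axis starts at 0, each segment is the mean of 3 libraries for 1 gene, and Hspa1a is too low to be seen. The bar at 500 mOsm is higher by about the segment of Hspa1b, which is 226 FPKM there and 8.33 in iso-osmolar medium.

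The regulators of these genes were compared next. The factor Hsf1 averaged 55.5 FPKM in the iso-osmolar libraries, 58.5 at 500 mOsm and 52.1 at 600 mOsm and did not pass the test in any comparison, with an edgeR adjusted p of 0.0527 between the intensities at a log2 fold change of −0.15. Hsf2 held 6.06, 6.99 and 6.30 FPKM and passed in none. Of the 6 heat shock factors and regulators tested, 2 rose and 0 fell at 500 mOsm, 2 rose and 1 fell at 600 mOsm, and 1 was lower at 600 than at 500 mOsm, with median log2 fold changes of 0.15, 0.05 and −0.10. Of all genes tested, 13.2% rose and 14.8% fell at 500 mOsm, 15.1% rose and 20% fell at 600 mOsm, and 17.2% were lower between the intensities. The gene behind the largest of these values was Ier5, which recruits a phosphatase to Hsf1 and so promotes its activity. Ier5 held 42.2 FPKM in the iso-osmolar libraries, 96.4 at 500 mOsm and 28.3 at 600 mOsm, with log2 fold changes of 1.196, −0.55 and, between the intensities, −1.75 (edgeR adjusted p = 2.2e-06, 0.00141 and 1.15e-07). Like Bag3, it rose at 500 mOsm and was below the iso-osmolar level at 600 mOsm.

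Among 17 other targets of the heat shock response, 4 rose and 1 fell at 500 mOsm, 4 rose and 3 fell at 600 mOsm, and from 500 to 600 mOsm 2 increased and 5 decreased. The shares over all genes tested were 13.2% and 14.8%, 15.1% and 20%, and 11.9% and 17.2% in the same order. Their median log2 fold changes were 0.02, −0.01 and −0.07, and no gene among them reached 1 in size. Of the 8 other Hsp70 family genes tested, 2 rose and 0 fell at 500 mOsm, 1 rose and 1 fell at 600 mOsm, and from 500 to 600 mOsm 0 increased and 2 decreased, and the medians were −0.00195, −0.05 and −0.14. One of these was Hspa1l, which starts 547 bases from Hspa1a on the opposite strand and had only 5 to 44 reads per library. It held 0.255, 0.576 and 0.229 FPKM on average, with log2 fold changes of 1.19 at 500 mOsm and −1.31 between the intensities (edgeR adjusted p = 0.0385 and 0.025). The 3 other small heat shock protein genes tested passed in no comparison, with medians of 0.27, −0.18 and −0.16.

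Of 13 partner proteins of Hsp70 and Hsp90, 0 rose and 2 fell at 500 mOsm, 0 rose and 3 fell at 600 mOsm, and 0 passed between the intensities, with medians of 0.05, 0.03 and −0.02. One of them, Aarsd1, fell by 2.26 and 1.83 on the log2 scale (edgeR adjusted p = 0.00253 and 0.00683) from an average of 0.463 FPKM, with 1 to 23 reads per library. Of 5 TonEBP and osmolyte genes, 4 rose at 500 mOsm, 2 fell at 600 mOsm against iso-osmolar medium, and 5 were lower at 600 than at 500 mOsm, with medians of 1.22, −0.08 and −1.25. Beside these counts, 13.2% of all genes tested rose and 14.8% fell at 500 mOsm, and 15.1% rose and 20% fell at 600 mOsm. Between the intensities 11.9% were higher and 17.2% lower at 600 than at 500 mOsm. Nfat5 itself held 5.06, 6.26 and 2.69 FPKM. Its log2 fold change was 0.31 at 500 mOsm, −0.90 at 600 mOsm and −1.21 between the intensities (edgeR adjusted p = 0.14, 0.000609 and 6.63e-05). The neutral amino acid transporter Slc38a2 held 31.6, 190.0 and 30.8 FPKM, the myo-inositol transporter Slc5a3 1.59, 3.69 and 0.909, and aldose reductase Akr1b3 76.5, 197 and 82.0. Between the intensities their log2 fold changes were −2.61, −2.01 and −1.25, beside −3.70 for Hspa1b.

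**Figure D5:**
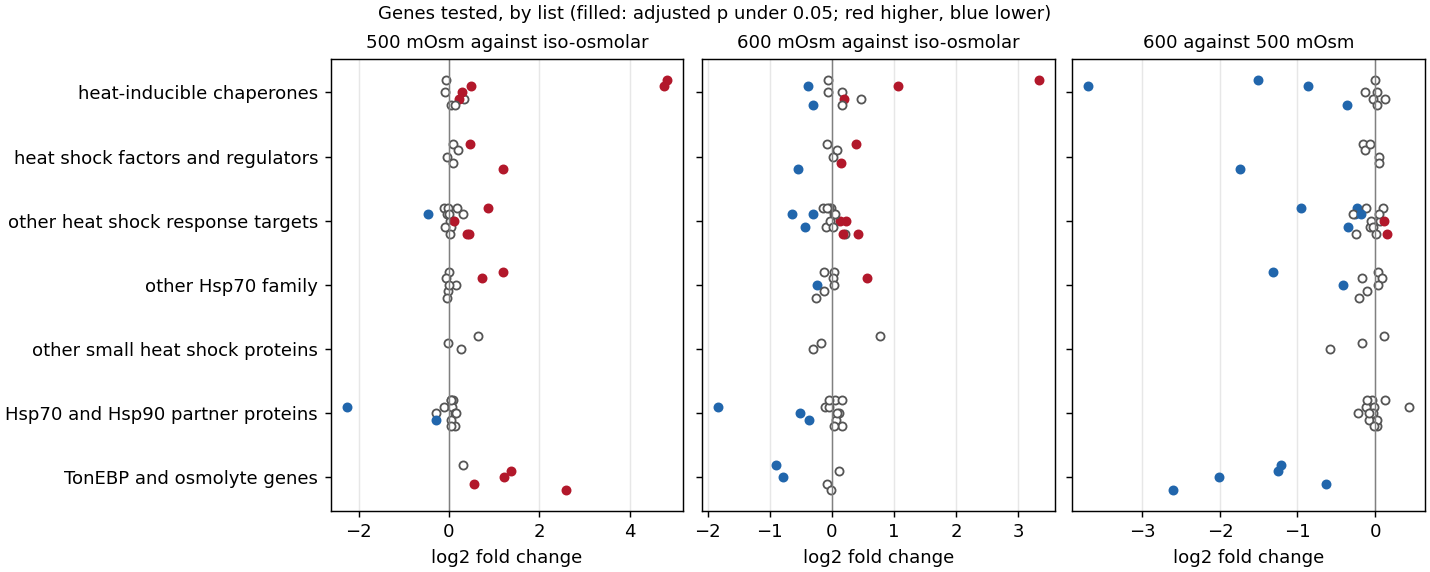
Log2 fold change of the genes tested in each list, in the 3 comparisons. The x axes, which differ in range, are log2 fold changes, each point is 1 gene, and filled points had an edgeR adjusted p under 0.05 (red higher, blue lower). At 500 mOsm Hspa1a and Hspa1b lie to the right of all listed genes, and between the intensities all 5 TonEBP and osmolyte genes are lower, as are 4 of the 10 chaperones.

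Over the 9 libraries and the 10301 genes whose log2 CPM averaged 1 or more, profiles among the 5 most like Hspa1a (Pearson r of log2 CPM, a description over libraries that share treatments) were those of Id2 (0.988), Cd99l2 (0.988), Elmod3 (0.982) and Amigo2 (0.979). Id2, an inhibitor of helix-loop-helix transcription factors, held 23.6, 145.5 and 76.9 FPKM. The r does not measure the size of a change. At 500 mOsm the log2 fold change was 2.63 for Id2, 0.35 for Cd99l2, 0.64 for Elmod3 and 0.97 for Amigo2, beside 4.83 for Hspa1a. Among the 10 chaperones the r with Hspa1a was 0.879 for Hspb8, 0.877 for Hspa1b, 0.646 for Hspb1, 0.625 for Cryab and −0.663 for Hspa8. Hspa1b ranked 173 among the candidates by this measure. The cut on log2 CPM was not applied to Hspa1a, whose profile rests on few reads (5 in each iso-osmolar library), so these values carry its counting error.

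The libraries held 21716042 to 26740832 reads on genes, and the common biological coefficient of variation was 0.0756. Of 10 fibroblast markers 9 had a mean above 1 FPKM, while Dcn was at or near 0 in all libraries (at most 0.0595). The fibroblast markers summed to 5500 to 5585 FPKM in iso-osmolar medium, 5384 to 5640 at 500 mOsm and 6237 to 6296 at 600 mOsm. Of the markers of other cell types, the 3 endothelial ones summed to 0.202 to 0.246 FPKM in iso-osmolar medium, 3.32 to 3.77 at 500 mOsm and 0.570 to 0.901 at 600 mOsm, in the same order as Hspa1a. Pecam1 made up most of this (3.05 to 3.52 at 500 mOsm), Tek reached 0.0964 to 0.108 at 500 mOsm against at most 0.00989 in iso-osmolar medium and 0.0267 at 600 mOsm, and Cdh5 lay at 0.114 to 0.204 over all libraries. The 4 epithelial markers were also highest at 500 mOsm, with sums of 0.793 to 0.865 FPKM in iso-osmolar medium, 1.51 to 1.99 at 500 mOsm and 0.782 to 1.199 at 600 mOsm. Among them Cdh1 was at most 0.00918 FPKM in iso-osmolar medium, 0.749 to 0.835 at 500 mOsm and at most 0.0340 at 600 mOsm. Over all libraries the 4 leukocyte markers summed to 3.65 to 16.1, the 4 muscle markers 0.0136 to 0.158 and the 4 lens or neural markers 2.31 to 4.09, with Myog at 0 throughout and Epcam and Ptprc at most 0.0222 and 0.0505. The part of other cells in the results was not tested, and in bulk RNA fewer cells of a type and less RNA per cell cannot be told apart.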

How the data were processed

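Counts of 35275 genes in 9 MEF libraries were analysed. The authors deposited raw counts of reads per gene, without normalization, and FPKM computed from them with the gene lengths that the table lists. The submitters' processing notes name CASAVA 1.8, STAR and the build mm10, and the counting tool is not given in the sources used here. The table also holds the authors' fold changes and p-values, which were not used. Libraries were grouped by their labels. The quasi-likelihood test of edgeR 4.0.16 (R 4.3.3) was applied to the counts after TMM scaling. One model with treatment as its factor held the 9 libraries and the 13082 genes passing filterByExpr, with Benjamini-Hochberg adjustment over all of them and a threshold of 0.05. Intervals are at 95%. FPKM is used for levels only. Totals were 21716042 to 26740832 counts per library.

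The genes, the other lists and the rule for named genes were chosen with earlier results of these data known. All 10 chaperones are named. Other listed genes are named where the adjusted p was under 0.05 and the log2 fold change was 1 or more in size, besides Hsf1, Hsf2 and Nfat5, the 5 genes most like Hspa1a (of which 1 is not reported here) and genes sharing sequence with a chaperone. Markers of fibroblasts and of 5 other cell classes were read as FPKM. Alternatives were RLE size factors or library size alone, no filter or at least 10 counts in every library, DESeq2 1.42.0, a fit of each pair of groups alone, the replicate number as a block, limma 3.58.1 on log2 FPKM with 1 or 0.1 added, the count of Hspa1a added to Hspa1b, and each library left out. A correction for GC content and length was added after seeing the data. Promoters are from RefSeq, annotation from GENCODE M21, and shared sequence was searched with blastn (100 bases, 95% identity).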

Additional observations from a re-analysis of the deposited data

How the results depend on the processing

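Bag3, Hsph1 and Hspb8 did not reach a log2 fold change of 1 in size, which 1 alternative required. Under every other alternative in which they were tested, Hspa1a, Hspa1b and Bag3 kept their direction and their side of the threshold in all comparisons. The calls of Hsph1 and Hspb8 that passed were kept there too. Hspa1a, with 5 reads per iso-osmolar library, could not be tested with at least 10 counts required in every library. With a required log2 fold change of 1 in size, 2 of the 10 genes passed in each comparison, and 1122, 742 and 857 of all genes at 500 mOsm, at 600 mOsm and between the intensities. At an adjusted p under 0.01, 2846 genes passed at 600 mOsm and 2352 between the intensities, beside 4594 and 3810 at 0.05. The scale of log2(FPKM + 1) lowered the log2 fold change of Hspa1a to 1.52 at 500 mOsm. With the GC content and length correction the log2 fold change at 600 mOsm turned to 0.0352 for Hspa8 and −0.0511 for Hspb1, and between the intensities to 0.00412 for Hspb8, while Hspb1 passed there at −0.17 (adjusted p = 0.0435), Hsp90aa1 passed at 600 mOsm at 0.54 (adjusted p = 0.0373) and Hsph1 at 600 mOsm still passed at −0.13. Without a filter on low counts Hsp90aa1 passed at 500 mOsm (0.32, adjusted p = 3.81e-06) and at 600 mOsm (0.47, adjusted p = 1.3e-12). In that fit the edgeR adjusted p of Hspa1a at 500 mOsm also fell, to 1.57e-71. The cause of these shifts was not tested. Values near 0 changed sign between the intensities: Dnajb1 was −0.0136 with library size alone, −0.00974 with at least 10 counts in every library and −0.0120 in both limma fits, and without single libraries it ranged from −0.0462 to 0.0624, Hspb8 from −0.0594 to 0.0124 and Cryab from −0.0292 to 0.0618.

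With the replicate number as a block, 4, 5 and 4 of the 10 genes passed at 500 mOsm, at 600 mOsm and between the intensities, beside 5, 5 and 4 without it, and Hspb1 at 500 mOsm had a log2 fold change of 0.29 (adjusted p = 0.0518). Of all 13082 genes tested, 3111 passed at 500 mOsm with the block and 3659 without it. Deviations of same-numbered libraries correlated at −0.688 to 0.611 over 9 pairs (mean −0.242, other pairs 0.123), so the libraries share a number and no pairing was taken from it. Single libraries left out gave 4 to 6, 5 to 6 and 4 to 5 of the 10 genes passing. Of all 13082 genes, 3012 to 3708, 3550 to 4644 and 2843 to 3753 then passed. The 5 reads of Hspa1a per iso-osmolar library limit the precision of its fold change.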
